A study of Mus musculus with 4 samples.

Results

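T cell and NK cell genes were followed in RNA from sorted mouse lung smooth muscle cells (SMCs), library by library. The 10 genes were fixed by symbol, namely *Cd3d*, *Cd3e*, *Cd3g*, *Cd4*, *Cd8a*, *Il7r*, *Lck*, *Gzma*, *Nkg7* and *Ncr1*. Each was found once among the 21462 genes of the table. The study asked how loss of *Tet3*, which encodes an enzyme that oxidizes 5-methylcytosine in DNA, changes transcription in SMCs. Mice were on a C57BL/6 background. The 2 Tet3 mutant libraries came from *Tet3* fl/fl mice carrying an inducible α-SMA-ERT2Cre transgene, which directs Cre to cells that express smooth muscle actin, and a tdTomato reporter in the ROSA26 locus. The 2 control libraries, named WT in the labels, came from mice without the floxed allele. For its experiments in general, the paper describes such controls as carrying the Cre transgene, the reporter or both. Since tdTomato+ cells were sorted, the controls used here carried at least the reporter. Tamoxifen, which activates this Cre, was injected daily from young adulthood, with no difference between genotypes stated. Lungs were perfused to wash out blood, dissociated and depleted of cells bearing CD45 or Ter-119 with magnetic beads, after which living tdTomato+ cells were sorted. The interval between tamoxifen and sorting and the sex of the animals were not given in the labels.

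T cells recognise peptides through a T cell receptor whose chains sit in the membrane with the CD3 proteins, and LCK, held by the coreceptors CD4 and CD8, phosphorylates CD3 to start the signal. NK cells lack a rearranged antigen receptor and instead read target cells through receptors such as NKp46, encoded by *Ncr1*. Both cell types kill through granules that hold granzymes and perforin. The lung holds resident and circulating cells of both types, and they carry CD45, the protein used here for depletion. Transcripts of these genes in a sort of SMCs therefore come with a check of what else the sort held.

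All 10 genes were lowest in control replicate 2, and lay there below 0.5 times their level in each of the other 3 libraries. Control replicate 1 and both Tet3 mutant libraries were close to one another for most of them. The summed normalised counts of the 10 genes were 873 in control replicate 1, 256 in control replicate 2, 911 in Tet3 mutant replicate 1 and 886 in Tet3 mutant replicate 2. The mutant mean of 898.5 was thus 1.03 times control replicate 1, whereas control replicate 2 was at 0.293 times control replicate 1. Over all 16659 genes that averaged at least 10 across the libraries, control replicate 2 was the lowest library for 33.1%, and lay below 0.5 times each other library for 2.44%. All 10 genes passed that filter on low values. No gene of the 16659 passed an adjusted p of 0.05 between Tet3 mutant and control in limma with Benjamini-Hochberg adjustment (0%), whereas 1112 (6.68%) had an unadjusted p under 0.05, made up of 3.83% higher and 2.85% lower in the mutants. Of the 10 genes, 0 passed either threshold. The paper used another test, the Wald test of DESeq2, and reported differentially expressed genes, among them genes of Toll-like receptor signalling. The absence of calls in limma on rounded normalised counts is therefore not a test of the paper's calls.

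**Figure D1:**
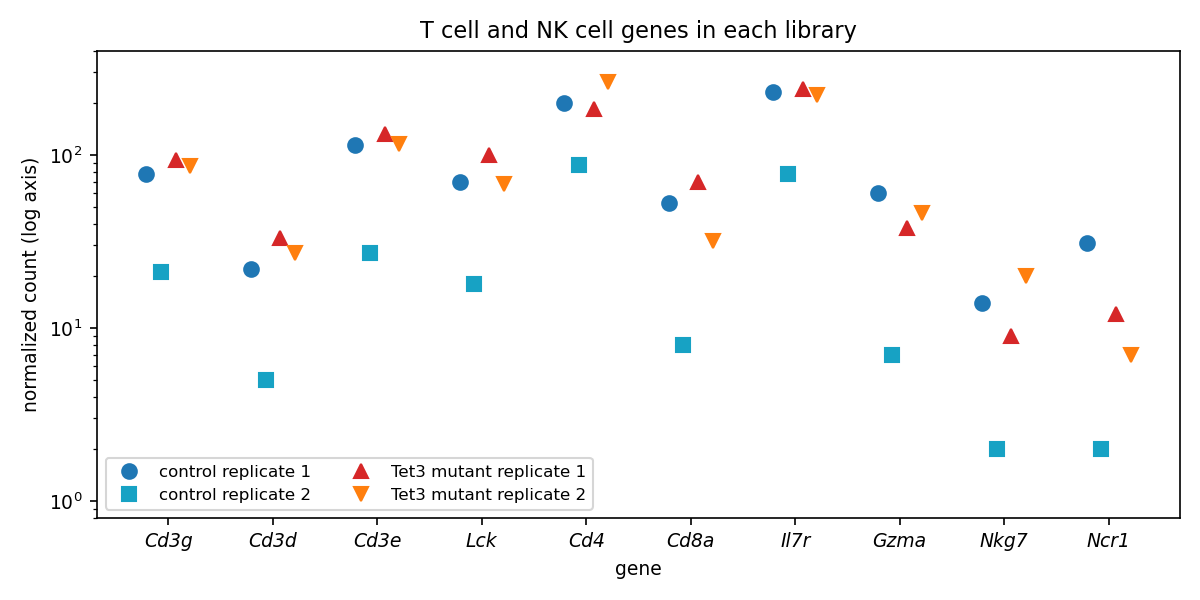
Normalised counts (log axis) of the 10 T cell and NK cell genes in each library, with blue for control and red or orange for Tet3 mutant. The square, control replicate 2, is the lowest symbol of every gene, from 2 for *Nkg7* and *Ncr1* to 88 for *Cd4*.

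The libraries were checked before single genes were compared. Deposited totals lay between 6805272 and 7164573 normalised counts, and the reads assigned to genes were estimated at 6.32 M to 7.56 M. *Tet3* was at 1847 and 1926 in the controls and at 1534 and 1444 in the mutants, so that the groups did not overlap. The same held, with the mutants lower, for 19.5% of all genes tested. Control replicate 2 also stood apart in genes of the sex chromosomes, with *Xist* at 2 and *Ddx3y* at 774, while *Xist* was between 5214 and 6781 and *Ddx3y* at 0 in the other 3 libraries. Within 4 libraries this difference and the low values of T cell and NK cell genes cannot be told apart. Smooth muscle markers summed to 10762 and 11305 in the controls and 12895 and 11870 in the mutants, led by *Mylk*, encoding myosin light chain kinase. Markers of other lung cells were present beside them, with *Pdgfra* of fibroblasts between 4449 and 5123, *Kdr* of endothelium between 2019 and 2536, *Cdh1* of epithelium between 1157 and 2612 and *Ptprc*, which encodes CD45 itself, between 1364 and 2674.

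The 3 CD3 genes lie side by side on chromosome 9 of GRCm38. *Cd3g* occupies 44969572 to 44980431 on the minus strand, *Cd3d* 44981786 to 44987339 on the plus strand and *Cd3e* 44998740 to 45009627 on the minus strand, with 1354 bases between *Cd3g* and *Cd3d* and 11400 bases between *Cd3d* and *Cd3e*. Their promoters are shown because these neighbours had like profiles across the libraries and because *Cd3g* and *Cd3d* are read outwards from one short interval. The low value in control replicate 2 was shared by all 10 genes, and so was not particular to these neighbours. Each sequence holds 250 bases before and 50 bases after the transcript start in RefSeq (GRCm38.p6), read 5′ to 3′ along the gene. Capitals mark matches on either strand to 4 short motifs of factors that act in lymphocytes. The ETS motif was searched as GGAAGT. For RUNX factors the letters searched were TGTGGT. The motif of GATA factors was taken as AGATAA. As an E-box the letters CAGGTG were used, and no matches of different motifs shared bases in these 3 windows.
Cd3g promoter, chr9:44980382-44980681, minus strand: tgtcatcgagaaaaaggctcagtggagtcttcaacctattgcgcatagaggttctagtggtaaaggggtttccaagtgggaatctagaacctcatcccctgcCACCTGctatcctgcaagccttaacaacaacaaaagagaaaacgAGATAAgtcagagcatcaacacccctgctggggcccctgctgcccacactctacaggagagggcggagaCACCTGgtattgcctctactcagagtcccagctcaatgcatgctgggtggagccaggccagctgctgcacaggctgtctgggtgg
Cd3d promoter, chr9:44981536-44981835, plus strand: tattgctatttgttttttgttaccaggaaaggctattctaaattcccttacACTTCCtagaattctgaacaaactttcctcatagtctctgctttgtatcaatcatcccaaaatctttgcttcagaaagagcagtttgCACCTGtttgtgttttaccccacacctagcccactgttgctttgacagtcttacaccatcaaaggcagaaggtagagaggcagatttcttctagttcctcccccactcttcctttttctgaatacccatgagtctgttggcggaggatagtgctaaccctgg
Cd3e promoter, chr9:45009562-45009861, minus strand: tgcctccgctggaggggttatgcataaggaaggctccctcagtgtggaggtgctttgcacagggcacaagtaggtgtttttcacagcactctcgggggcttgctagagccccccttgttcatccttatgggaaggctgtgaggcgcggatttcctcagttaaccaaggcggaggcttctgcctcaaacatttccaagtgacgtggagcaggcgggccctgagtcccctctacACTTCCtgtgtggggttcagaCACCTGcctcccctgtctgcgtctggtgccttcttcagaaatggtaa

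All 3 CD3 windows held the E-box letters, *Cd3d* and *Cd3e* also held the ETS letters, and the GATA letters occurred in *Cd3g*. Promoter windows were matched for 9 of the 10 genes, all but *Cd4*. These genes had 11 windows, since *Lck* and *Ncr1* have a pair each. The E-box letters were found in 6 of the 11 windows, against 20.2% of all 32851 promoter windows of the same length. The ETS letters occurred in 5 of 11 (23.8% of all windows), the RUNX letters in 6 of 11 (16.8%) and the GATA letters in 1 of 11 (11.2%). The pair of *Ncr1* windows overlaps, so the same RUNX matches count in both. By gene, the E-box and RUNX letters each occurred in 5 of 9, the ETS letters in 4 and the GATA letters in 1. The *Cd8a* window held none of them. A match describes the letters of the window and not the binding of a factor.

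The CD3 chains carry the signal of the T cell receptor into the cell. *Cd3e* had 114 normalised counts in control replicate 1, 27 in control replicate 2, 132 in Tet3 mutant replicate 1 and 115 in Tet3 mutant replicate 2. Its 3 high libraries lay within a narrow range and control replicate 2 far below them, and the groups stayed apart by a single normalised count between control replicate 1 and the lower mutant. The difference between mutant and control, a log2 fold change computed from value + 1, was 1.13 ± 0.68 (SE, n = 2 per group; adjusted p = 0.699 in limma), and without control replicate 2 it was 0.11 ± 0.21. A stretch of 135 exon bases of *Cd3e* lies antisense to *Gm48719*, and the strand setting of the counting was not given in the sources used here. Reads shared by several genes were excluded, so how reads of that stretch were treated is uncertain.

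*Cd3g* followed the same order, at 78 and 21 in the controls and 94 and 86 in the mutants. *Cd3d* was the lowest of the 3 with 22, 5, 33 and 27 in the same order of libraries. In both genes control replicate 1 was nearer to the mutants than to the other control. The log2 fold change was 1.12 ± 0.63 for *Cd3g* (SE, n = 2 per group; limma adjusted p = 0.689) and 0.20 ± 0.23 without control replicate 2. For *Cd3d* it was 1.39 ± 0.72 (SE, n = 2 per group; limma adjusted p = 0.687) and 0.42 ± 0.35 without that library. These 3 CD3 genes were the members whose groups did not overlap, all higher in the mutants, as were 19.6% of all genes tested.

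*Lck*, on chromosome 4 (129548344 to 129573641), encodes the kinase that phosphorylates the CD3 chains. Its values were 70 and 18 in the controls and 100 and 68 in the mutants. Control replicate 1 lay between the mutants and control replicate 2 below all of them. The log2 fold change was 1.18 ± 0.68 (SE, n = 2 per group; limma adjusted p = 0.689), and 0.23 ± 0.36 without control replicate 2. *Mir8119* shares 25 exon bases with *Lck* on the same strand.

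*Cd4*, on chromosome 6 (124864692 to 124888221), encodes the coreceptor of helper T cells and is also transcribed in some myeloid cells. It showed the smallest gap of the 10 genes, with 199 and 88 in the controls and 184 and 264 in the mutants. The controls overlapped the mutants through control replicate 1. *Cd8a*, on the same chromosome (71373427 to 71379173), encodes a chain of the coreceptor of cytotoxic T cells and was at 53 and 8 in the controls and 70 and 32 in the mutants. Here the mutants differed from each other by more than control replicate 1 differed from either. The log2 fold changes were 0.73 ± 0.43 for *Cd4* (SE, n = 2 per group; limma adjusted p = 0.697) and 1.13 ± 0.94 for *Cd8a* (limma adjusted p = 0.745), and without control replicate 2 they were 0.15 ± 0.30 and -0.16 ± 0.63. Per kilobase of exon, *Cd8a* was at 29.5% of *Cd4* in control replicate 1, 10.1% in control replicate 2, 42.2% in Tet3 mutant replicate 1 and 13.4% in Tet3 mutant replicate 2, an order that did not separate the groups.

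*Il7r*, on chromosome 15 (9505788 to 9530176), encodes the receptor chain for interleukin-7, which T cells and innate lymphoid cells need to survive. It was at 232 and 78 in the controls and 239 and 221 in the mutants. The 3 high libraries lay between 221 and 239. The log2 fold change was 0.77 ± 0.52 (SE, n = 2 per group; limma adjusted p = 0.715) and was -0.01 ± 0.14 without control replicate 2, with an unadjusted p of 0.927 in that fit across all genes.

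In the genes of cytotoxic cells control replicate 1 lay above or between the mutants. *Gzma*, encoding granzyme A, lies on chromosome 13 (113093825 to 113100981) and was at 60 and 7 in the controls and 38 and 46 in the mutants. *Nkg7*, encoding a granule membrane protein, lies on chromosome 7 (43437073 to 43438249) and was at 14 and 2 in the controls and 9 and 20 in the mutants. The groups overlapped in both genes, since control replicate 1 lay among or above the mutants. *Ncr1*, also on chromosome 7 (4337724 to 4345164), was at 31 and 2 in the controls and 12 and 7 in the mutants. It was the only one of the 10 whose control mean was above its mutant mean, at 16.5 ± 20.5 against 9.5 ± 3.54 (SD, n = 2 per group), while its log2 fold change was 0.06 ± 1.19 (SE; limma adjusted p = 0.993). For *Gzma* and *Nkg7* the log2 fold change was 0.95 ± 0.98 and 1.11 ± 0.93 (SE, n = 2 per group; limma adjusted p = 0.796 and 0.750). Without control replicate 2 they were -0.51 ± 0.31 for *Gzma*, -0.05 ± 0.65 for *Nkg7* and -1.65 ± 0.49 for *Ncr1*. In that setting *Ncr1* had an unadjusted p of 0.0479 and an adjusted p of 0.801 in limma, with a lone control assumed to vary like the mutants. Normalised counts of 2 are under the value of 3 taken here as the floor of counting, so the lowest levels of *Nkg7* and *Ncr1* cannot be told from 0.

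**Figure D2:**
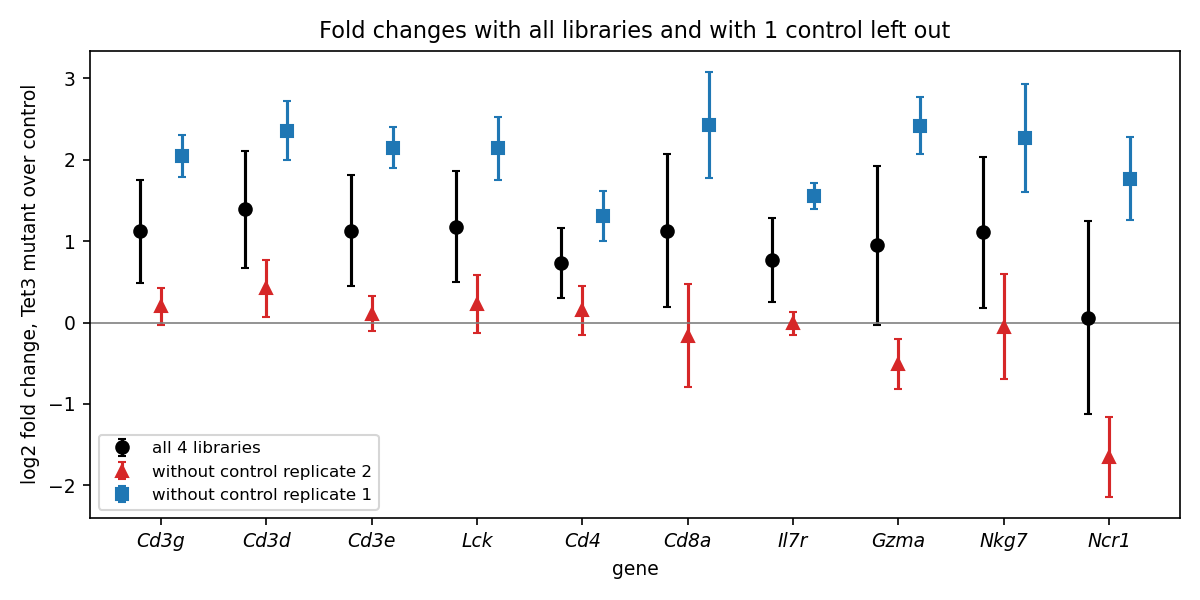
Log2 fold change, Tet3 mutant over control, of each gene with its standard error from limma, with all 4 libraries (black circles), without control replicate 2 (red triangles) and without control replicate 1 (blue squares). With all libraries the values lay between 0.06 and 1.39, without control replicate 1 between 1.31 and 2.43, and without control replicate 2 between -1.65 and 0.42.

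The size of the fold changes therefore depended on which control was used. Of the 10 genes, 5 (*Cd3d*, *Cd3e*, *Cd3g*, *Cd4* and *Lck*) stayed above 0 whichever library was left out, and the other 5 were at or below -0.01 without control replicate 2. With all libraries 10 of 10 had a log2 fold change above 0 (49.0% of all genes tested), with a median of 1.12 beside a median of -0.007 over all genes. Without control replicate 1 the median was 2.14, and all 10 had an unadjusted p under 0.05 and were higher in the mutants, against 10.4% of all genes that were higher and 9.84% that were lower with such a p (49.9% of all genes were above 0). Their adjusted p in that fit lay between 0.205 and 0.238. Without control replicate 2 the median was 0.05, 5 of 10 were above 0 (47.2% of all genes), 0 were higher and 1, *Ncr1*, was lower with an unadjusted p under 0.05 (3.07% and 2.30% of all genes), and adjusted p lay between 0.801 and 0.987. Leaving out either mutant library gave a median of 1.01. In bulk RNA, fewer cells of a type and less RNA per cell cannot be told apart.

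The ratio of control replicate 1 to control replicate 2 gives the size of the gap, with a 95% exact binomial interval on the estimated reads that covers counting error only. It was 2.26 for *Cd4* (1.74 to 2.94), 2.97 for *Il7r* (2.29 to 3.93) and 4.22 for *Cd3e* (2.72 to 6.66). For genes with few reads the interval was wide, as for *Gzma* at 8.57 (3.70 to 20.9) and *Ncr1* at 15.5 (3.73 to 126). All 10 intervals lay above 1, and the lowest bound was 1.56 for *Cd3d*. The intervals of *Cd4* and *Gzma* did not overlap.

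**Figure D3:**
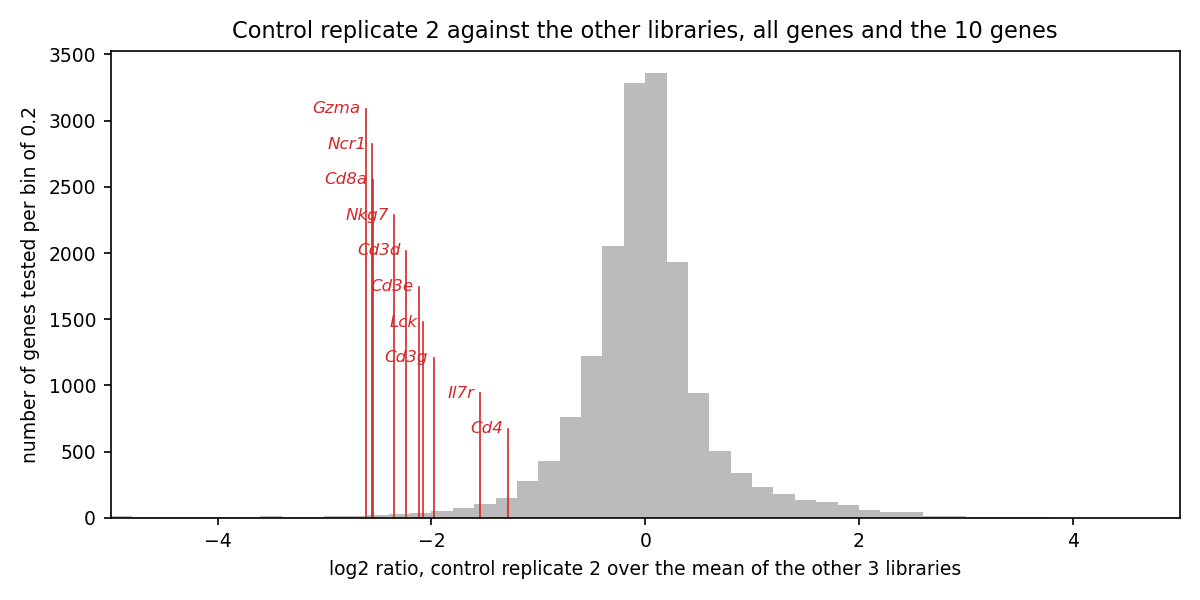
Number of genes tested per bin of the log2 ratio of control replicate 2 to the mean of the other 3 libraries, each with 1 added, for all 16659 genes (grey), with the 10 genes as red lines whose heights carry no value. The 10 lay between -2.61 for *Gzma* and -1.28 for *Cd4*.

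On that axis 2.94% of all genes tested lay at or below *Cd4* and 0.558% at or below *Gzma*. For the CD3 genes the share was 0.846% for *Cd3d*, 0.954% for *Cd3e* and 1.10% for *Cd3g*. The median gene had a ratio of 0.992 between control replicate 2 and the mean of the others.

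Levels were compared between genes per kilobase of exon. In control replicate 1 *Gzma* led with 59.6 normalised counts per kilobase, followed by *Il7r* (49.8), *Cd4* (49.4), *Cd3e* (27.9), *Cd3g* (23.9), *Lck* (23.9), *Ncr1* (20.1), *Nkg7* (15.3), *Cd8a* (14.6) and *Cd3d* (12.1). In control replicate 2 *Cd4* led with 21.8 per kilobase, then *Il7r* (16.7), and *Gzma* was at 6.96, beside *Cd3e* at 6.62. The order of *Cd4* and *Il7r* changed between the mutant libraries, 45.6 against 51.3 in replicate 1 and 65.5 against 47.4 in replicate 2, and so did not hold beyond their spread. Per kilobase *Ncr1* was at 7.79 and 4.55 in the mutants, below its 20.1 in control replicate 1, while *Cd3d* was at 18.2 and 14.9, above its 12.1 there. Per kilobase, *Ncr1* was at 72.0% of *Cd3e* in control replicate 1, 24.1% in Tet3 mutant replicate 1 and 16.1% in Tet3 mutant replicate 2, and at 19.6% in control replicate 2, where it rests on 2 normalised counts of *Ncr1*.

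The remaining receptor chains were also lowest in control replicate 2, but *Trac* was the only one of them whose groups did not overlap. All 11 listed chains of the T cell receptor and CD3 were tested, and control replicate 2 was below 0.5 times each other library in all 11. The constant gene of the α chain, *Trac*, was at 40 and 3 in the controls and 48 and 51 in the mutants, and *Cd247*, encoding the ζ chain, was at 61 and 22 against 83 and 59. The list had 0 genes with an unadjusted p under 0.05, 11 of 11 above 0 and a median log2 fold change of 1.13, which was 2.15 without control replicate 1 and 0.10 without control replicate 2. *Trdc*, the constant gene of the δ chain, had 37 and 3 in the controls and 23 and 12 in the mutants, so that both mutants lay below control replicate 1. Per kilobase it was at 22.4% of *Trac* in control replicate 1, 11.6% in Tet3 mutant replicate 1 and 5.69% in Tet3 mutant replicate 2, and at 24.2% in control replicate 2, where both genes are at the counting floor of 3. The β and γ constant genes have near-identical copies, and their separate values are uncertain because reads mapping to several places were excluded. *Trdc*, chosen after its values were seen, lies outside the rule for named genes.

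Among coreceptors and other T cell surface proteins, 12 of 14 genes were tested, 0 had an unadjusted p under 0.05, and control replicate 2 was below 0.5 times each other library in 11 of 12. *Cd2*, an adhesion receptor, was at 214 and 58 in the controls and 185 and 234 in the mutants. *Cd226*, an activating receptor of T and NK cells, was at 158 and 73 against 155 and 226, and *Cd6* at 59 and 20 against 65 and 59. Control replicate 1 was within or at the mutants' range in *Cd6* and *Cd226* and between them in *Cd2*. The list's median was 0.86 with all libraries, 1.72 without control replicate 1 and 0.01 without control replicate 2.

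Genes further down the pathway, some of which other leukocytes also use, differed less when summed. Their sum in control replicate 2 was 0.575 times the mean of the other libraries, beside 0.288 for the 10 genes. Of the signalling genes, 15 of 16 were tested, and 8 of those 15 lay below 0.5 times each other library in control replicate 2. The kinase gene *Fyn* was at 936 and 704 in the controls and 985 and 924 in the mutants, and the adaptor gene *Fyb* at 632 and 452 against 767 and 657. Control replicate 2 was the lowest library in both genes, but by less than in the 10 genes. Other genes of the list lay as far down there as members of the 10. Among them, chosen after their values were seen, *Skap1* was at 78 and 11 against 84 and 55, and *Lat* at 53 and 17 against 68 and 70. Unadjusted p was under 0.05 for 2 of 15, both higher in the mutants, beside 3.83% of all genes. *Lcp2*, encoding the adaptor SLP-76, was at 329 and 218 in the controls and 452 and 457 in the mutants (log2 fold change 0.76 ± 0.22, SE, n = 2 per group; limma adjusted p = 0.681), and *Grap2* at 237 and 176 against 302 and 337 (0.64 ± 0.20; limma adjusted p = 0.681). Without control replicate 2 the fold changes were 0.46 for *Lcp2* and 0.43 for *Grap2*. The list's median was 0.64, 1.11 without control replicate 1 and 0.12 without control replicate 2.

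**Figure D4:**
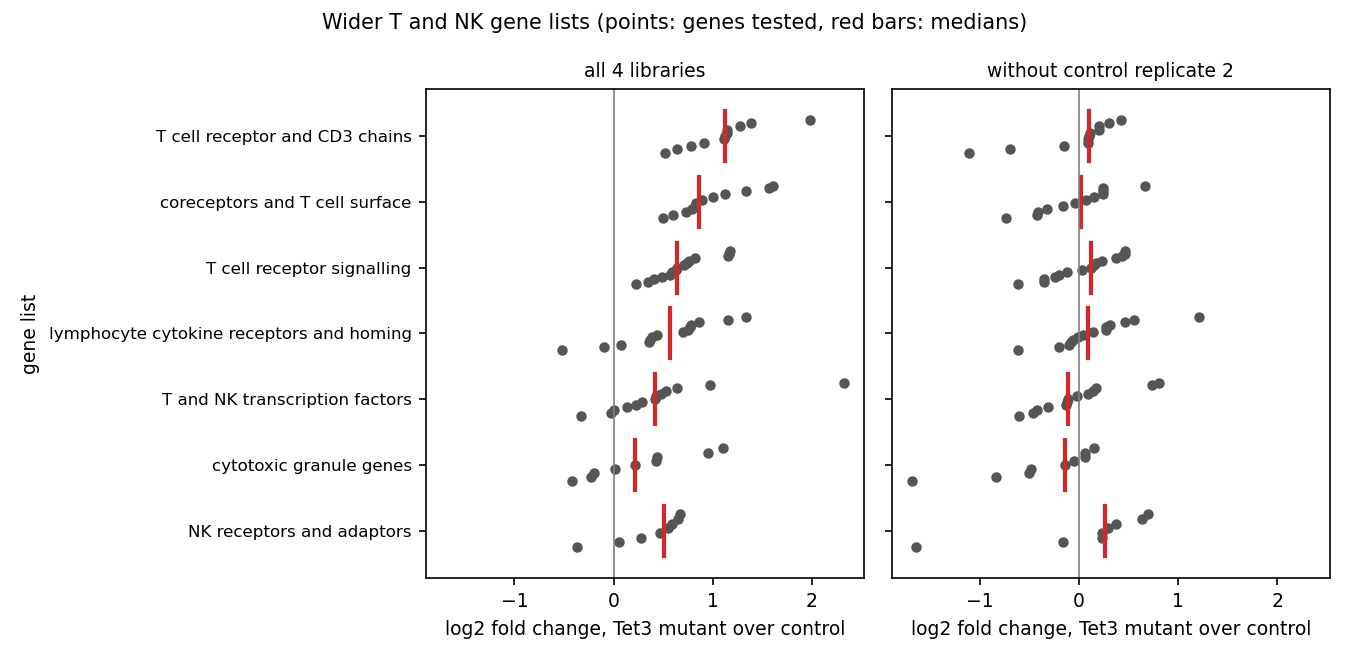
Log2 fold change, Tet3 mutant over control, of each tested gene in 7 lists of T and NK cell genes (points) with the list median (red bar), with all 4 libraries on the left and without control replicate 2 on the right. Medians lay between 0.22 and 1.13 with all libraries and between -0.14 and 0.26 without control replicate 2.

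All 14 cytokine receptor and homing genes were tested. *S1pr1*, which endothelium also transcribes strongly, was at 1077 and 732 in the controls and 956 and 918 in the mutants. *Il18r1* went the other way in control replicate 2, at 569 and 1078 in the controls and 486 and 612 in the mutants. Control replicate 2 was thus not low for every gene of the list, and lay below 0.5 times each other library in 4 of 14. Unadjusted p was under 0.05 for 2 of 14, both higher in the mutants (3.83% of all genes). Among them *Itgae*, encoding the αE integrin of resident T cells and of some dendritic cells, was at 181 and 295 in the controls and 417 and 423 in the mutants (log2 fold change 0.86 ± 0.26, SE, n = 2 per group; limma adjusted p = 0.681). In *Itgae* the lower control was replicate 1, and without control replicate 2 its fold change was 1.21 (limma adjusted p = 0.801). The list's median was 0.57, 0.78 without control replicate 1 and 0.09 without control replicate 2.

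The 13 transcription factor genes had 0 with an unadjusted p under 0.05 and a median of 0.42, which became 0.59 without control replicate 1 and -0.11 without control replicate 2. *Tcf7*, encoding TCF1 of T cells, was at 299 and 184 in the controls and 361 and 279 in the mutants. *Ets1*, also active in endothelium, was at 1441 and 980 against 1354 and 1274. In these genes control replicate 2 was the lowest library, but by less than in the 10 genes. *Runx3*, used by cytotoxic T cells, was at 111 and 165 against 185 and 207, and *Zbtb16*, encoding PLZF, at 897 and 1028 against 1127 and 1982. Both had their lowest value in control replicate 1. *Eomes*, a factor of NK and memory T cells chosen after its values were seen, was listed at 0 in control replicate 2, beside values of 19 in the other control and 21 and 22 in the mutants.

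Of 12 cytotoxic granule genes 11 were in the table and 9 were tested, with 0 at an unadjusted p under 0.05, and the most abundant were lysosomal genes that many cells use. *Ctsc*, encoding cathepsin C, was at 1773 and 2650 in the controls and 1792 and 1906 in the mutants, and *Lamp1* at 1401 and 1498 against 1509 and 1416. Neither was low in control replicate 2. *Srgn*, encoding the granule proteoglycan serglycin, was at 305 and 204 against 339 and 337. Only 3 of the 9 tested genes lay below 0.5 times each other library in control replicate 2, and the list's median was 0.22, with 0.85 without control replicate 1 and -0.14 without control replicate 2.

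NK receptor genes were sparse, since 21 of 22 were in the table and 8 reached the filter. The most abundant encode adaptors shared with myeloid cells. *Tyrobp*, encoding DAP12, was at 197 and 170 in the controls and 229 and 282 in the mutants, and *Fcer1g* at 144 and 154 against 193 and 286 (log2 fold change 0.65 ± 0.24, SE, n = 2 per group; limma adjusted p = 0.681). *Cd244a*, encoding the receptor 2B4, was at 147 and 157 against 269 and 195 (0.59 ± 0.22; limma adjusted p = 0.681). *Fcer1g* and *Cd244a* were the 2 of 8 with an unadjusted p under 0.05, both higher in the mutants (3.83% of all genes), and neither was low in control replicate 2. Of the 8 tested genes control replicate 2 was the lowest library in 4 (33.1% of all genes tested), and lay below 0.5 times each other library in 1, *Ncr1* (2.44% of all genes tested). Over all 21 in the table, with the genes under the filter included, it was the lowest library in 10. It lay below 0.5 times each other library in 7 of those 21. *Klrb1b* ranged from 35 to 254 in the mutants alone and shares near-identical sequence with its neighbours. The list's median was 0.51, with 0.59 without control replicate 1 and 0.26 without control replicate 2. Of 13 effector cytokine genes 5 were in the table and only *Tnf* was tested, at 59 and 59 in the controls and 87 and 58 in the mutants. *Ifng* reached at most 4, *Il10* 7 and *Lta* 4 normalised counts in any library.

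Markers of other cells were summed in the same libraries. The 10 pan-leukocyte markers came to 6197 and 4208 in the controls and 7122 and 6697 in the mutants, so that control replicate 2 was again lowest, at 0.679 times control replicate 1. The 10 T cell and NK cell genes made 14.1% of that sum in control replicate 1, 6.08% in control replicate 2, 12.8% in Tet3 mutant replicate 1 and 13.2% in Tet3 mutant replicate 2. They were therefore lower in control replicate 2 also relative to the leukocyte markers. B cell markers moved with them in the controls, at 753 and 195, and were at 766 and 404 in the mutants. *Cd22*, a B cell lectin, was at 179 and 24 in the controls and 158 and 123 in the mutants. Relative to B cell markers the 10 genes summed to 116%, 131%, 119% and 219% in the order control replicates 1 and 2 and Tet3 mutant replicates 1 and 2, so control replicate 2 was not low on that scale. Macrophage markers, at 8405 and 7565 in the controls and 9046 and 10288 in the mutants, differed less between the controls, and the 10 genes were at 10.4% of their sum in control replicate 1 and 3.38% in control replicate 2.

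Dendritic cell markers summed to 1839 and 2025 in the controls and 2364 and 3078 in the mutants, led by *Itgax*, and neutrophil markers to 750 and 540 against 1396 and 880, led by *Csf3r*. Platelet and erythroid markers were at 684 and 225 against 262 and 560. Of the solid tissue markers, epithelial ones were highest in control replicate 2, at 8970 against 5265 to 5955 in the other libraries, and mesothelial ones lowest there, at 699 against 836 to 1116. Endothelial markers lay between 9406 and 11416, fibroblast markers between 14829 and 18844 and markers of type 2 innate lymphoid cells, led by *Rora*, between 2043 and 2388. Control replicate 2 was the lowest library for endothelial and fibroblast markers, at 0.858 and 0.821 times control replicate 1. It was lowest in 8 of 8 genes of each of these lists. Summed macrophage markers were lowest there too, at 0.900 times control replicate 1. Control replicate 2 was thus low in the 10 genes and in B cell markers, with fewer normalised counts of pan-leukocyte markers and more of epithelial markers. Platelet and erythroid markers, at 0.329 times control replicate 1, and neutrophil markers, at 0.720 times, were also lowest there. Among NK receptor genes control replicate 2 was the lowest library in 4 of the 8 tested, beside 33.1% of all genes tested, and in 10 of the 21 in the table. With so few genes this count does not set NK receptor genes apart. The part of these other cell types in the fold changes of the 10 genes was not tested.

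**Figure D5:**
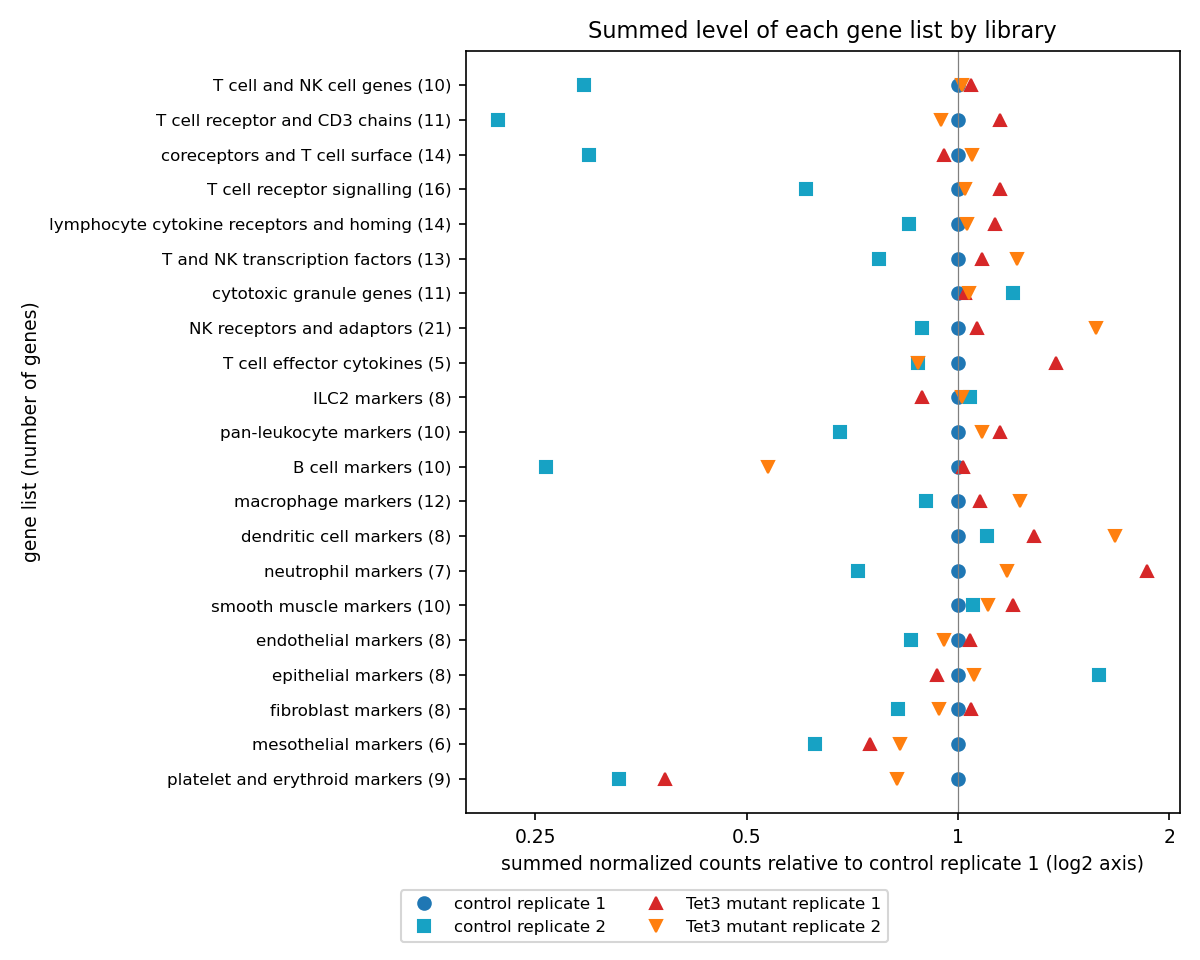
Summed normalised counts of each gene list in each library relative to control replicate 1 (log2 axis), with the number of genes per list in brackets. Control replicate 2 (squares) lay at 0.293 for the 10 T cell and NK cell genes, 0.221 for receptor chains, 0.259 for B cell markers and 1.59 for epithelial markers, while both mutants stayed near 1 for the 10 genes.

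The genes whose pattern was most like the summed 10 genes were found by the Euclidean distance between profiles over the 4 libraries, among 12658 genes with a mean of at least 50 outside all lists. The nearest was *Slitrk6*, with 153 and 45 in the controls and 173 and 173 in the mutants (distance 0.128), then *Cpz*, with 117 and 32 against 121 and 105 (0.139), *AU040972*, an antisense transcript, with 62 and 18 against 63 and 71 (0.158), *Samsn1*, with 232 and 69 against 233 and 208 (0.160), and *Pou2af1*, with 62 and 21 against 69 and 64 (0.194). Each had its low value in control replicate 2. The median distance of all candidates was 1.58, and the closest of the 10 genes themselves were *Cd3g* at 0.217 and *Il7r* at 0.220, with *Ncr1* farthest at 1.53. With 4 libraries a short distance says only that 1 library was low by a like factor.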

How the data were processed

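RNA-seq of sorted lung SMCs was analysed in 2 control and 2 Tet3 mutant libraries, grouped by the genotype in the labels. Per the methods of the study and the submitters' processing notes, the authors depleted ribosomal RNA, made stranded total RNA libraries, sequenced them single-end, trimmed reads with Trimmomatic 0.36, aligned them with STAR 2.6.0c to GRCm38 (mm10), counted exon reads with featureCounts (Subread 1.6.0), excluded reads of several genes or places, and normalised the counts. The deposited values are a score, since the authors rounded the normalised count of each gene to a whole number, and without raw counts no count model was used. Replicates were independent animals by the study's methods.

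Values were compared as log2(value + 1), a scale on which low genes appear to change less, using lmFit and eBayes with trend of limma 3.58.1 (R 4.3.3) over 16659 of 21462 genes with a mean of at least 10, with Benjamini-Hochberg adjustment at 0.05. On simulated data of the same 21462 genes the analysis was checked before use for whether the median estimate came near known fold changes. The simulated spread between replicates was a fixed setting, not that of these libraries. False calls and power at the spread seen here were therefore not assessed. An exact permutation test of 2 against 2 libraries cannot go below 0.333 and was not used. Reads per library were estimated from the spacing of low values, and read ratios carry 95% exact binomial intervals that cover counting error only. Exon lengths came from GENCODE on GRCm38 (99.8% of genes matched) and promoters from RefSeq (GRCm38.p6).

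The 10 genes, the lists and the alternatives were chosen with earlier results of these data known. Named were the 10 genes, per T and NK list the 4 genes of highest mean and those with an unadjusted p under 0.05, the top gene of each other marker list and the 5 nearest profiles, and others are said to be chosen after their values were seen. Cytokine and receptor genes of the lists that had no row were not analysed here, and 3 genes met the rule but are not reported here. Alternatives were a pseudocount of 0.5 or 8, a minimum mean of 1 or 50, TMM factors, equal totals, no trend, a replicate block and each library left out.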

Additional observations from a re-analysis of the deposited data

How the results depend on the processing

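No gene was called over all genes in limma under any setting except without the trend, where 1 was. Genes with an unadjusted p under 0.05 numbered 1112 with all libraries, and their number ranged from 273 to 3366 when a library was left out (3366 without control replicate 1, 894 without control replicate 2, 273 and 414 without Tet3 mutant replicates 1 and 2). None of the 10 genes was called under any setting run. The number of the 10 with an unadjusted p under 0.05 ranged from 0 to 10 with a library left out, and their median log2 fold change from 0.05 to 2.14. The replicate numbers did not mark a pairing given in the labels. Across 16659 genes, deviations of same-numbered libraries from their group mean had a Pearson correlation of 0.134, with 2 pairs of libraries. With the replicate block 1 of the 10 genes, *Lck*, had an unadjusted p under 0.05 beside 1637 of all genes, and 0 were called. Of the 10 genes 5 changed direction with a library left out, each of them without control replicate 2. *Ncr1* did so also without Tet3 mutant replicate 1 (-0.29) and with a pseudocount of 8 (-0.19). Of 41 other named genes, 26 kept their direction under every setting and 15 changed it with a library left out. The log2 fold changes of those genes then ranged from -0.16 to 2.43 for *Cd8a*, -0.01 to 1.55 for *Il7r*, -0.51 to 2.42 for *Gzma*, -0.05 to 2.27 for *Nkg7*, -1.65 to 1.77 for *Ncr1*, -0.04 to 1.83 for *Cd2*, -0.20 to 0.36 for *S1pr1*, -0.13 to 0.42 for *Ets1*, -0.52 to 0.06 for *Ctsc*, -0.04 to 0.06 for *Lamp1*, -1.79 to 1.04 for *Klrb1b*, -0.02 to 0.55 for *Tnf*, -0.17 to 0.02 for *Rora*, -0.36 to 2.49 for *Cd22*, -0.26 to 0.03 for *Mylk*, -0.04 to 0.22 for *Kdr*, -0.13 to 0.07 for *Pdgfra*, -0.41 to 0.61 for *Upk1b*, -0.05 to 1.78 for *Cpz* and -0.08 to 1.66 for *Samsn1*. With equal library totals *Pdgfra* was at 0.02. The cause was not tested.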

Other observations

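Gene segments that are joined to make T cell receptors were also followed, as annotated in the deposited table. The 12 variable segments summed to 56 and 17 normalised counts in the controls and 72 and 63 in the mutants, with control replicate 2 the lowest library in all 12. The 7 constant genes summed to 172 and 24 in the controls and 172 and 136 in the mutants, and control replicate 2 was again the lowest in all 7. The 4 joining segments were at 16 and 3 against 15 and 3, so here Tet3 mutant replicate 2 was as low. No variable segment exceeded 14 normalised counts in a library, and related segments share sequence, so single segments were not compared.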
